A study of Mus musculus with 8 samples.

Results

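Venus-positive mouse embryonic stem (ES) cells that had lost the surface antigen SSEA-1 (V+S-) were compared with Venus-positive cells that still carried it (V+S+). The comparison used 4 of the 8 array samples of the series, a V+S- and a V+S+ sample from each of 2 clones, 5.1 and 16.1, paired by clone. The cells were 129/Ola ES cells with a gene knock in at the Hex locus, where an internal ribosome entry site places the fluorescent protein Venus behind Hex. They were derived from a line that expresses the BirA biotin ligase. All samples, controls included, came from cells grown with the cytokine LIF, on gelatin and without feeder cells, and then sorted by flow cytometry for Venus (V) and SSEA-1 (S). The labels give every fraction the source name pre-primitive endoderm. The V- samples of both clones, with SSEA-1 (V-S+) and without it (V-S-), were 4 further samples and show whether a difference by SSEA-1 was also found in cells without Venus.

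SSEA-1 is the Lewis X trisaccharide, a sugar with a branching fucose that undifferentiated mouse ES cells display on glycolipids and glycoproteins and lose as they differentiate. Fut9 is the fucosyltransferase that completes it in ES cells. Hex is a homeobox gene of early endoderm, and primitive endoderm is the layer of the blastocyst that forms the visceral and parietal endoderm of the yolk sacs. Parietal endoderm cells are migratory and mesenchymal in form, make vimentin, and secrete the thick basement membrane known as Reichert's membrane, rich in laminin and type IV collagen.

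Each value below is a log2 ratio of the sample, labelled with Cy3, to a reference RNA pooled from mouse cell lines and labelled with Cy5, which was the same on every array. Per sample, 28316 to 29671 probes were well above background, Cy3 signals had a median of 2.36 to 2.87 times their background, and no spot was saturated. The 2 clones lay on different slides, so that effects of clone and slide cannot be told apart. In the main fit the p-values rest on the spread within fractions, pooled over all 8 samples and drawn by limma towards the spread typical of all probes. The SE of a difference comes from the same fit. With 2 samples per fraction, these p-values do not extend to clones other than these 2. Gene names came from the study's table of genes that differed among the fractions, of which only a part was used here. That part named 1997 of the probes tested, and all other probes carry an identifier and no gene name. That table was chosen on these same samples, so counts of named genes are not independent evidence of a direction. Where fractions are said below not to overlap, or samples to lie above or below others, this describes 2 samples against 2. It adds no evidence to the test, since the genes were mostly picked by their differences.

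Many more probes rose than fell when SSEA-1 was lost. Of 29483 probes tested, 517 (1.75%) were higher and 104 (0.353%) were lower in V+S- than in V+S+, at a Benjamini-Hochberg adjusted p under 0.05 in limma and a change of more than 1.5-fold. Of these, 80 were more than 2-fold higher and 20 were more than 2-fold lower. All 621 differed in the same direction in both clones. The 621 were 2.11% of the probes tested, and the median difference over all probes was 0.02 on the log2 scale. Without the fold threshold 7.86% of all probes and 36.0% of named probes were higher. Because each sample is RNA of a sorted pool, more cells of a type and more RNA per cell cannot be told apart. In clone 5.1 alone, 901 probes were more than 1.5-fold higher and 244 lower, in clone 16.1 alone 494 and 126, and in both clones 365 and 72. Among the 517 higher probes 378 had the larger difference in clone 5.1.

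The counts depended on single samples. Leaving out V+S- of clone 5.1 left no probe called in limma, with 6035 at an unadjusted p under 0.05, and leaving out V+S- of clone 16.1 left none, with 6686. Leaving out V+S+ of clone 5.1 gave 100 higher and 20 lower probes, and leaving out V+S+ of clone 16.1 gave 821 and 194. When the clone was not a term of the model no probe was called, although 4429 had an unadjusted p under 0.05.

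**Figure D1:**
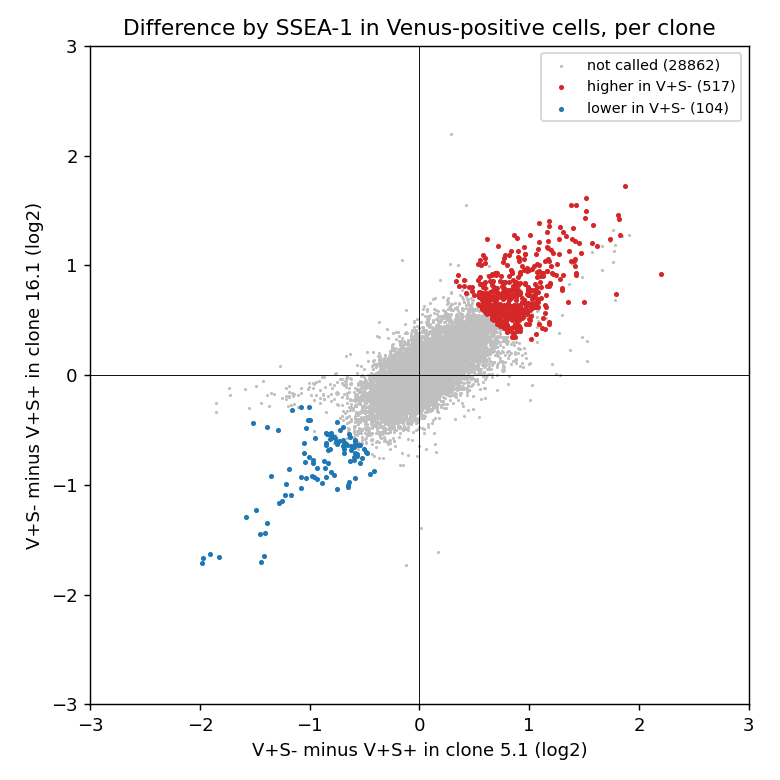
Difference between V+S- and V+S+ (log2) in clone 5.1 on the x axis and in clone 16.1 on the y axis, with 1 point per probe. The 517 higher probes (red) lie in the upper right and the 104 lower probes (blue) in the lower left, so that all of them have the same sign in both clones, while 28862 probes (grey) were not called.

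Fut9, which adds the fucose of SSEA-1, fell, and was the 1 of the 5 named genes of Lewis X synthesis to pass both the test and the 1.5-fold threshold. In V+S+ cells its log2 ratio was 0.72 for clone 5.1 and 0.88 for clone 16.1, and in V+S- cells 0.10 and 0.23. Both V+S- samples lay below both V+S+ samples. The difference was -0.64 ± 0.06 (SE, n = 2 clones, adjusted p = 0.00711 in limma), a 1.56-fold fall, and was -1.44 but not called (adjusted p = 0.0507 in limma) with the signals as processed by the scanner software, where no probe passed the test and 8077 had an unadjusted p under 0.05. In the Cy3 channel alone Fut9 differed by -0.54, which passed the test but was under 1.5-fold. In V- cells Fut9 was also lower without SSEA-1, by differences of -0.44 in clone 5.1 and -0.33 in clone 16.1, and the difference between the V+ and the V- comparison did not pass the test (-0.25, adjusted p = 0.165 in limma).

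Of 19 genes listed for Lewis X and its precursor chains, 5 could be named, and the other 4 did not pass both thresholds. B3gnt8, which extends the poly-N-acetyllactosamine chain that carries the antigen, differed by 0.42, and the galactosyltransferase B4galt3 by 0.33, with adjusted p-values of 0.0172 and 0.0411 but below 1.5-fold. Gcnt1 (0.14) and B4galt4 (-0.03) differed little. Fut8, which adds the core fucose of N-glycans and is not part of Lewis X, was looked up after its value was seen, and it rose by 0.69 (adjusted p = 0.00768 in limma, clone 5.1 0.58 and clone 16.1 0.80).

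The largest rise among named genes was that of Igfbp5, a secreted binding protein for insulin-like growth factors. In V+S+ cells its log2 ratio was -1.90 for clone 5.1 and -0.83 for clone 16.1, and in V+S- cells -0.03 and 0.88. The fractions did not overlap, and the rise was 3.47-fold (1.79 ± 0.20, adjusted p = 0.00800 in limma). The bZIP transcription factor Maf rose 2.77-fold, from -4.37 and -3.37 to -2.86 and -1.94.

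Vim, Postn and Col1a2 encode proteins by which mesenchymal cells are commonly recognised, and all of them rose. Vim (vimentin, an intermediate filament protein) had log2 ratios of -3.72 (clone 5.1) and -3.04 (clone 16.1) in V+S+ and of -2.20 and -1.43 in V+S-, a 2.96-fold rise (1.56 ± 0.12, adjusted p = 0.00676 in limma). Postn (periostin, a matricellular protein) had -2.99 and -2.31 in V+S+ and -1.47 and -0.81 in V+S-, and rose 2.85-fold. Both V+S- samples lay above both V+S+ samples for both genes. Col1a2, a chain of type I collagen, rose 2.76-fold, from -5.08 and -4.45 to -3.69 and -2.90, so that even in V+S- it stayed far below the reference RNA.

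**Figure D2:**
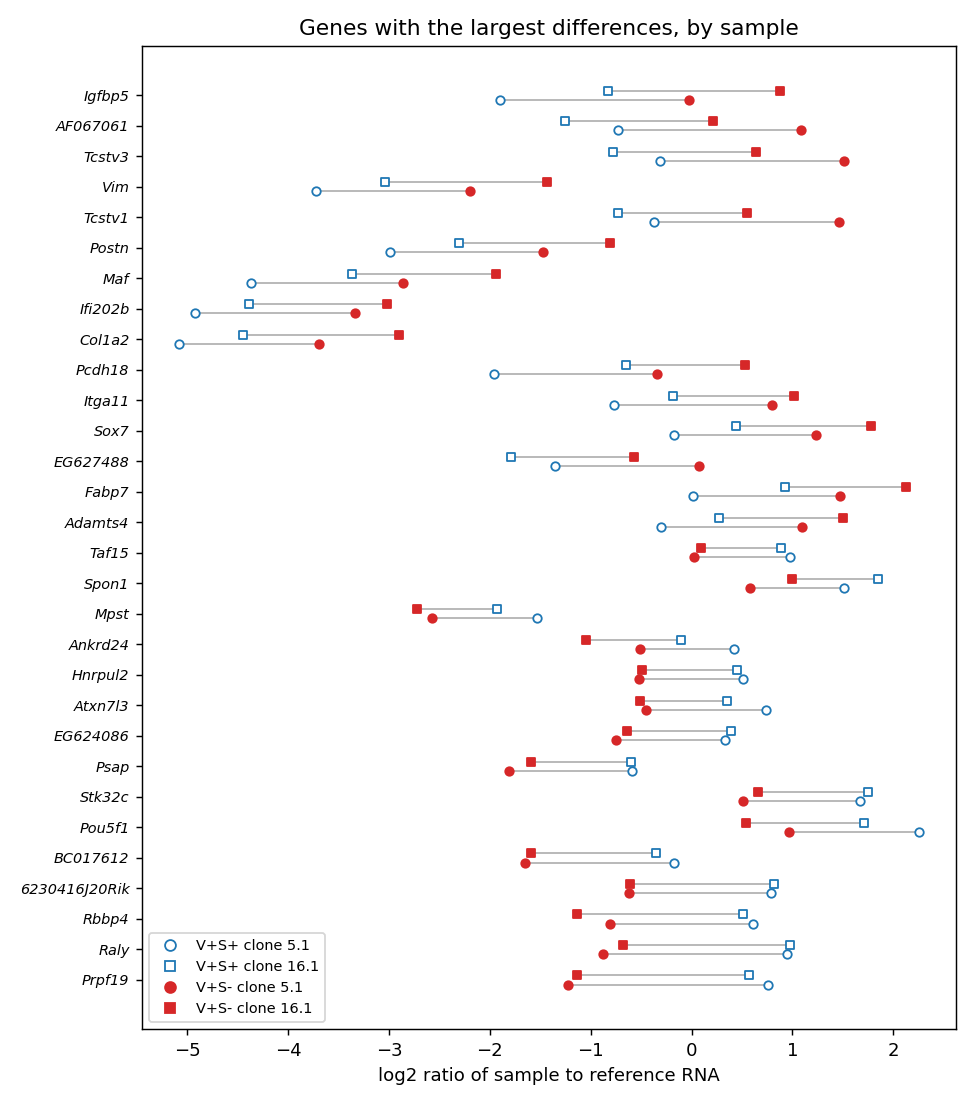
Log2 ratio of sample to reference RNA for the 15 named genes with the largest rises and the 15 with the largest falls, with open blue symbols for V+S+ and filled red symbols for V+S-, circles for clone 5.1 and squares for clone 16.1. Grey lines join the samples of a clone, and in every pair the red symbol lies to the right of the blue one from Igfbp5 down to Adamts4 and to the left of it from Taf15 down to Prpf19.

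The start regions of these genes were searched for letters that transcription factors bind, because members moved together. Promoters of 250 bases before to 50 bases after the gene start (RefSeq, GRCm38.p6) were found for 246 of 326 distinct named genes that rose and for 34 of 41 that fell. The TEAD site GGAATG was on 1 of the strands in 11.0% of the promoters of rising genes and 8.82% of those of falling genes, against 14.6% of all 27025 promoters. The AP-1 site TGANTCA was in 6.91% and 5.88%, against 7.93% of all. The CArG box of serum response factor was in 2.03% and 0% against 1.57%, and the octamer ATGCAAAT in 2.03% and 2.94% against 1.75%. In the promoters of named genes that were not called the shares were 14.6% for the TEAD site, 6.39% for the AP-1 site, 2.76% for the CArG box and 1.47% for the octamer. Among the promoters found for the 15 largest rises, 3 held any of these letters, and the 250 bases before their gene starts are shown in the direction of transcription with the matches in capitals. Igfbp5 (GRCm38.p6, chr1:72874866-72875115, minus strand) and Ifi202b (chr1:173982845-173983094, minus strand) held the TEAD letters, and AF067061 (chr13:120262845-120263094, plus strand) held the AP-1 letters.
Igfbp5: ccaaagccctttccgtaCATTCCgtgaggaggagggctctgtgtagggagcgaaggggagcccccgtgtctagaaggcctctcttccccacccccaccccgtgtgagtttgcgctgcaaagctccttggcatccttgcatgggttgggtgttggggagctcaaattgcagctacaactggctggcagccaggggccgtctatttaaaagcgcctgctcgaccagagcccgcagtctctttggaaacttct
Ifi202b: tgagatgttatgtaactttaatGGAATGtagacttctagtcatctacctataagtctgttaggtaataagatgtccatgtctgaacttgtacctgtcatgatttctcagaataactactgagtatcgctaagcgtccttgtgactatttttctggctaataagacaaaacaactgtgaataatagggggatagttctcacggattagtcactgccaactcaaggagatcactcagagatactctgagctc
AF067061: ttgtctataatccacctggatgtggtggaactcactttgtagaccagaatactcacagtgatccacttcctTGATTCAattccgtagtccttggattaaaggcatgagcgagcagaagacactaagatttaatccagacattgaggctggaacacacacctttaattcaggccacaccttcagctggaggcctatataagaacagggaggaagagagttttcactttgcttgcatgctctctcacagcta

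The list of extracellular matrix genes held more rises than any other list. Of 46 listed structural genes 32 could be named, 19 of them rose and 1 fell, against 17.0% of all named probes that rose and 2.30% that fell, and the median difference was 0.65 against 0.24 over all named probes. Apart from Postn and Col1a2, the rises included Col6a3 (1.29 ± 0.11), Col8a1 (1.17 ± 0.10), the TGF-beta-induced adhesion protein Tgfbi (1.12 ± 0.15), Col12a1 (1.00 ± 0.11), tenascin C (Tnc, 0.95 ± 0.16, not called without V+S+ of clone 16.1) and thrombospondin 1 (Thbs1, 0.83 ± 0.08). Chains of the network-forming type IV collagen of basement membranes rose as well, with differences of 1.00 for Col4a5, 0.75 for Col4a1 and 0.72 for Col4a2. The 1 matrix gene that fell was Spon1, a secreted F-spondin, from 1.51 in clone 5.1 and 1.85 in clone 16.1 to 0.58 and 1.00 (-0.89 ± 0.07, adjusted p = 0.00711 in limma).

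Of 16 named genes for collagen folding and cross-linking 6 rose (37.5%, against 17.0% of named probes) and 10 were not called. The rises included the cross-linking oxidase Lox (0.82 ± 0.13), the collagen chaperone Serpinh1 (0.74 ± 0.10), the lysyl hydroxylase Plod2 (0.63 ± 0.07) and Bmp1 (0.84 ± 0.09), which cuts procollagen ends. None of the 16 fell, and the median was 0.47. Over the alternatives that kept all samples Plod2 differed by 0.53 at the lowest, under 1.5-fold.

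Pericellular proteases and their inhibitors had 16 rises (61.5%, against 17.0% of named probes) and no fall among 26 named members, 10 of which were not called. Their median was 0.62, and 25 of 26 differed upwards in both clones, against 1269 of the 1997 named probes. Adamts4, a protease that cleaves aggrecan and other proteoglycans, went from -0.30 in clone 5.1 and 0.27 in clone 16.1 to 1.09 and 1.5, with no overlap (1.31 ± 0.10, adjusted p = 0.00676 in limma). Adamts12 (1.30 ± 0.16), the serine protease Prss23 (1.01 ± 0.15), the membrane-bound metalloproteinase Mmp14 (0.77 ± 0.08) and urokinase (Plau, 0.70 ± 0.08) rose. Inhibitors rose beside proteases, with Serpinf1 at 1.24 ± 0.14 and Timp1 at 0.63 ± 0.05.

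Of 26 named integrins and adhesion receptors 9 rose (34.6%, against 17.0% of named probes), none fell and 17 were not called, with a median of 0.37. Itga11, the alpha chain of a collagen-binding integrin, had log2 ratios of -0.77 and -0.18 in V+S+ and of 0.80 and 1.02 in V+S-, a 2.62-fold rise (1.39 ± 0.10, adjusted p = 0.00675 in limma). Pcdh18, a protocadherin, rose from -1.96 in clone 5.1 and -0.65 in clone 16.1 to -0.34 and 0.53. Alcam (1.09 ± 0.10), the hyaluronan receptor Cd44 (0.97 ± 0.13) and the syndecans Sdc2 (0.86 ± 0.10) and Sdc3 (0.70 ± 0.10) rose too.

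Caveolin 1 (Cav1), the coat protein of caveolae, rose from -4.87 in clone 5.1 and -3.86 in clone 16.1 to -3.45 and -2.81 (1.24 ± 0.12), and Cav2 rose by 0.69. They belonged to 23 named genes of the lysosome and endocytosis, of which 6 rose (26.1%, against 17.0% of named probes) and 1 fell, with a median of 0.49. The scavenger and signalling receptor Lrp1 (0.79 ± 0.09) and the cathepsin Ctsb (0.60 ± 0.06, and 0.39 in the Cy3 channel alone) were further rises. Psap, the precursor of the saposins that help to degrade sphingolipids in lysosomes, fell from -0.59 and -0.60 to -1.81 and -1.59 (-1.11 ± 0.16, adjusted p = 0.0128 in limma).

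Of 44 named actin filament and contractility genes 9 rose and none fell, a share of 20.5%, near the 17.0% of all named probes that rose, and the median was 0.36. The severing protein gelsolin (Gsn, 0.93 ± 0.10), smooth muscle actin (Acta2, 0.82 ± 0.15), skeletal actin (Acta1, 0.74 ± 0.13) and filamin C (Flnc, 0.62 ± 0.09) were among the rises. YAP-responsive genes, which the Hippo pathway's co-activator YAP drives with TEAD factors, were uneven. Of 25 named members 5 rose, a share likewise near the 17.0% of all named probes, among them Axl (1.23 ± 0.11), Tgfb2 (0.96 ± 0.11), Ccdc80 (0.92 ± 0.12) and Thbs1. The most widely used targets of that pathway did not pass the test, with differences of 0.03 for Ctgf, 0.04 for Cyr61 and 0.15 for Ankrd1.

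Of 21 named members of the TGF-beta, BMP and activin list 8 rose (38.1%, against 17.0% of named probes) and 1 fell (against 2.30%), with a median of 0.50. The ligands Tgfb2 (0.96), Tgfb3 (0.68 ± 0.10) and the activin subunit Inhba (0.63 ± 0.09), the receptor Tgfbr2 (0.66 ± 0.11), the mediator Smad3 (0.80 ± 0.12) and the latency protein Ltbp1 (1.13 ± 0.11) rose. The BMP target genes Id1 (0.07, adjusted p = 0.665) and Id2 (0.50, adjusted p = 0.0342, under 1.5-fold) were not called. The fall was that of Tdgf1 (Cripto), the co-receptor for Nodal and a marker of undifferentiated cells, which stood at 1.67 in both clones in V+S+ and at 0.97 and 1.02 in V+S- (-0.67 ± 0.07, adjusted p = 0.00768 in limma). With median centring instead of loess Tdgf1 differed by -0.56, which passed the test but was under 1.5-fold.

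**Figure D3:**
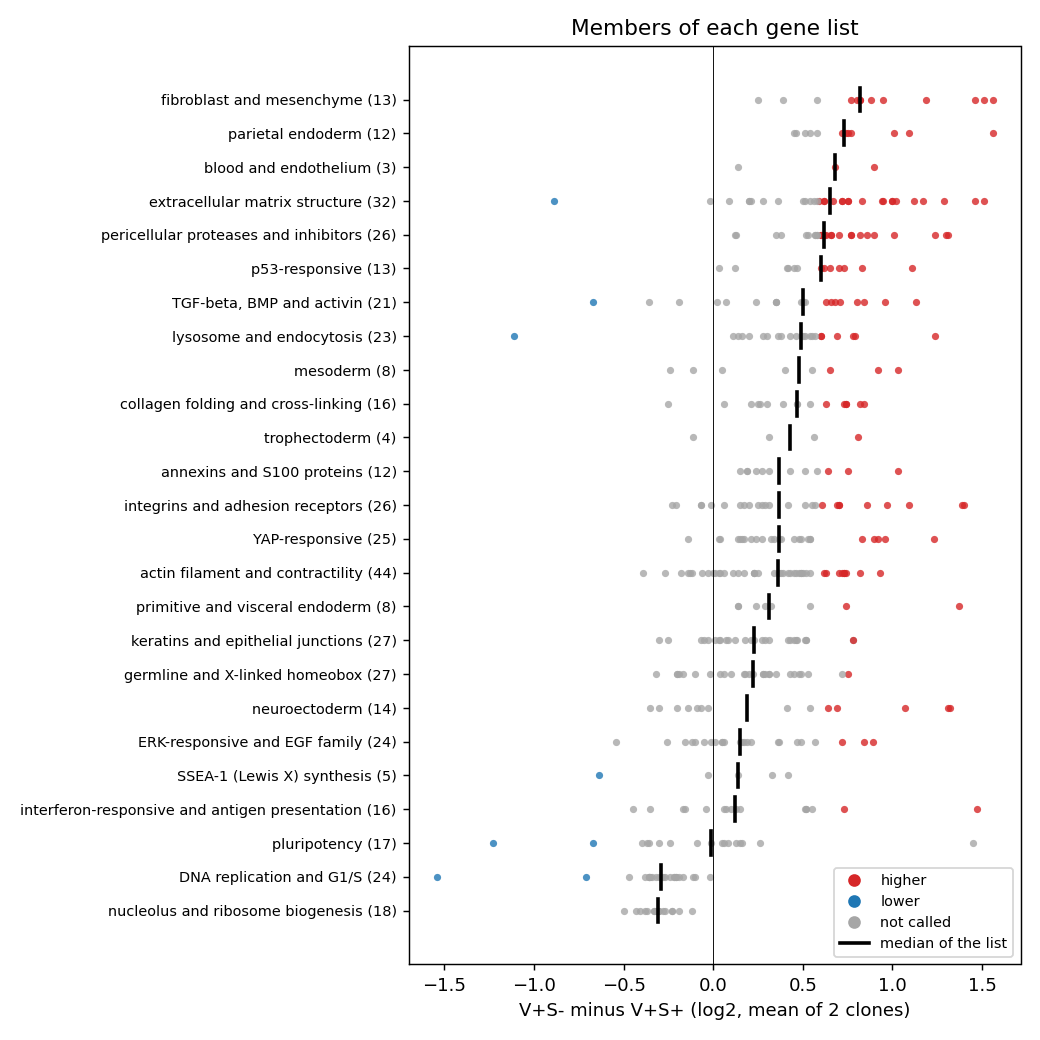
Difference between V+S- and V+S+ (log2, mean of the 2 clones) on the x axis for the named members of each gene list, with the number of members in brackets, red for higher, blue for lower and grey for not called. Black bars are medians, which run from -0.31 for the nucleolus and ribosome biogenesis to 0.82 for fibroblast and mesenchyme.

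Sox7, a transcription factor of primitive and parietal endoderm, had log2 ratios of -0.17 (clone 5.1) and 0.44 (clone 16.1) in V+S+ and of 1.23 and 1.78 in V+S-, a 2.59-fold rise (1.37 ± 0.14, adjusted p = 0.00768 in limma). Gata6, which directs primitive endoderm fate, rose from -2.45 and -2.50 to -1.50 and -1.98, a 1.66-fold rise (0.74 ± 0.11, adjusted p = 0.0140 in limma) that was 1.52 on the log2 scale but not called (adjusted p = 0.0507 in limma) with the signals as processed by the scanner software. The endocytic adaptor Dab2 differed by 0.54 (adjusted p = 0.0313), under 1.5-fold. Its partner receptor Lrp2 (0.14), Afp (0.32) and Mttp (0.29), genes of visceral endoderm, were not called, although Afp differed by 0.68 with the scanner-processed signals, also without a call. These belonged to 8 named genes of primitive and visceral endoderm out of 28 listed, of which 2 rose, a share of 25.0% against 17.0% of named probes.

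Of 12 named parietal endoderm genes 7 rose (58.3%, against 17.0% of named probes), with a median of 0.73 against 0.24. All 12 differed upwards in both clones, as did 1269 of the 1997 named probes. Besides Vim, Gata6, Col4a1 and Col4a2, these were the heparan sulfate sulfotransferase Hs3st1 (1.09 ± 0.19), thrombomodulin (Thbd, 1.01 ± 0.10) and the repressor of epithelial genes Snai1 (0.77 ± 0.08). The list's other members, such as Sparc (0.58), Lamb1-1 (0.54), Krt18 (0.51) and Krt8 (0.45), had adjusted p-values under 0.05 but changed less than 1.5-fold.

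Markers of other cell types moved in the same samples. The fibroblast and mesenchyme list had the highest median, 0.82, and 10 of its 13 named members rose (76.9%, against 17.0% of named probes), among them Cd248 (1.19 ± 0.12), Tnc, Prrx2 (0.88 ± 0.12), Acta2 and Twist2 (0.80 ± 0.15). Its mean log2 ratio to the reference RNA was -3.22 (clone 5.1) and -2.60 (clone 16.1) in V+S+ and -2.26 and -1.72 in V+S-, and between -3.65 and -3.25 in the V- fractions. None of its members was below background in either V+ fraction. The lists share members: Vim and Snai1 are also in the parietal endoderm list, and Postn, Col1a2 and Tnc in the matrix list. Col4a1 and Col4a2 are in both the parietal endoderm and the matrix list. The rises of these lists are therefore not separate evidence. The part of such cells in the result was not tested.

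Of 14 named neuroectoderm genes 5 rose (35.7%, against 17.0% of named probes), with a median of 0.19. Another 5 differed downwards in both clones, against 438 of the 1997 named probes, the lowest being Elavl2 (-0.35) and Hes5 (-0.30). Fabp7, a fatty acid binding protein of radial glia, went from 0.01 and 0.93 to 1.47 and 2.13 (1.32 ± 0.15), and the homeobox genes Dlx2 (1.31 ± 0.07) and En1 (1.07 ± 0.11) rose with it. Of 8 named mesoderm genes 3 rose (37.5%, against the same 17.0%), the transcription factors Foxc1 (1.03 ± 0.12), Hlx (0.92 ± 0.06) and Scx (0.65 ± 0.10). In the Cy3 channel alone Scx differed by 0.54, under 1.5-fold. Plac1 (0.81 ± 0.09) was the 1 of 4 named trophectoderm genes that rose (25.0%), while Gata3 differed by 0.56. Runx1 (0.90 ± 0.07) and Flt1 (0.68 ± 0.15) rose among 3 named blood and endothelium genes (66.7%), and Flt1 lost its call without any 1 of the V- samples.

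Of 13 named genes on the p53-responsive list 7 rose (53.8%, against 17.0% of named probes), none fell, and the median was 0.60 against 0.24 over all named probes. In both clones 12 of 13 differed upwards, against 1269 of 1997 named probes. Fas, the death receptor, had log2 ratios of -1.61 (clone 5.1) and -1.12 (clone 16.1) in V+S+ and of -0.31 and -0.21 in V+S-, a 2.15-fold rise (1.11 ± 0.10, adjusted p = 0.00711 in limma). Plk2 (0.83 ± 0.14), Rb1 (0.73 ± 0.06) and the cyclin Ccng1 (0.70 ± 0.10) were among the others. So were Mdm2, the ubiquitin ligase that restrains p53 (0.62 ± 0.08, and 0.49 and under 1.5-fold in the Cy3 channel alone), and the apoptosome scaffold Apaf1 (0.60 ± 0.09). In V- cells 10 of the 13 were higher without SSEA-1 in both clones, against 641 of the 1997 named probes. The difference between the V+ and the V- comparison was called for 2 of the 13, against 8.41% of named probes.

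In the interferon and antigen presentation list 2 of 16 named genes rose, Ifi202b from -4.92 and -4.39 to -3.34 and -3.02 (1.47 ± 0.12) and Irf2 by 0.73 ± 0.08, and the median was 0.12. Of 12 named annexins and S100 proteins 3 rose, Anxa5 (1.03 ± 0.11), Anxa1 (0.75 ± 0.11, and 0.51 and under 1.5-fold in the Cy3 channel alone) and S100a6 (0.64 ± 0.07). Of 24 named ERK-responsive and EGF family genes 3 rose, Ier5 (0.89 ± 0.10), Fosl2 (0.84 ± 0.15) and Egfr (0.72 ± 0.12), with a median of 0.15. Of 27 named keratin and junction genes only desmoplakin (Dsp, 0.78 ± 0.10) rose, and of 27 germline and X-linked homeobox genes only Tdrd7 (0.75 ± 0.09). The shares that rose in these 5 lists were, in the same order, 12.5%, 25.0%, 12.5%, 3.70% and 3.70%, against 17.0% of named probes.

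Pluripotency genes were split. Pou5f1 (Oct4) had log2 ratios of 2.25 (clone 5.1) and 1.71 (clone 16.1) in V+S+ and of 0.97 and 0.54 in V+S-, a 2.34-fold fall with no overlap (-1.23 ± 0.17, adjusted p = 0.0115 in limma). Pou5f1 and Tdgf1 were the 2 of 17 named members that fell, against 2.30% of all named probes, and the median of the list was -0.01. Nanog (-0.24, adjusted p = 0.360) and Dppa3, known as Stella (-0.37, adjusted p = 0.232), did not pass the test. Dppa3 went from 1.33 to 0.61 with the loss of SSEA-1 in clone 5.1, and from 0.53 to 0.49 in clone 16.1. Prdm14 (-0.01), Dppa2 (-0.09) and Alpl (0.05) differed by no more than 0.09 on the log2 scale.

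All 18 named genes of the nucleolus and ribosome biogenesis differed downwards in both clones, as did 438 of the 1997 named probes and 9037 of all 29483. The differences of the 18 lay between -0.50 and -0.12 with a median of -0.31, yet none reached 1.5-fold. Without the fold threshold 7 of the 18 passed the test, among them Nle1 (-0.43) and Nol9 (-0.41), against 3.01% of all probes and 7.31% of named probes that were lower. Of 24 named DNA replication and G1/S genes 23 differed downwards in both clones, against the same 438 of 1997 named probes, with a median of -0.29. The falls were those of Rbbp4 (-1.54 ± 0.20), a histone-binding subunit of chromatin assembly factor 1, and the purine synthesis enzyme Atic (-0.71 ± 0.11). Without the fold threshold 13 of the 24 passed, including the G1 cyclin Ccne1 (-0.47 ± 0.07), Cdc25a (-0.36, and -0.59 and called lower in the Cy3 channel alone) and the helicase subunit Mcm2 (-0.36).

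**Figure D4:**
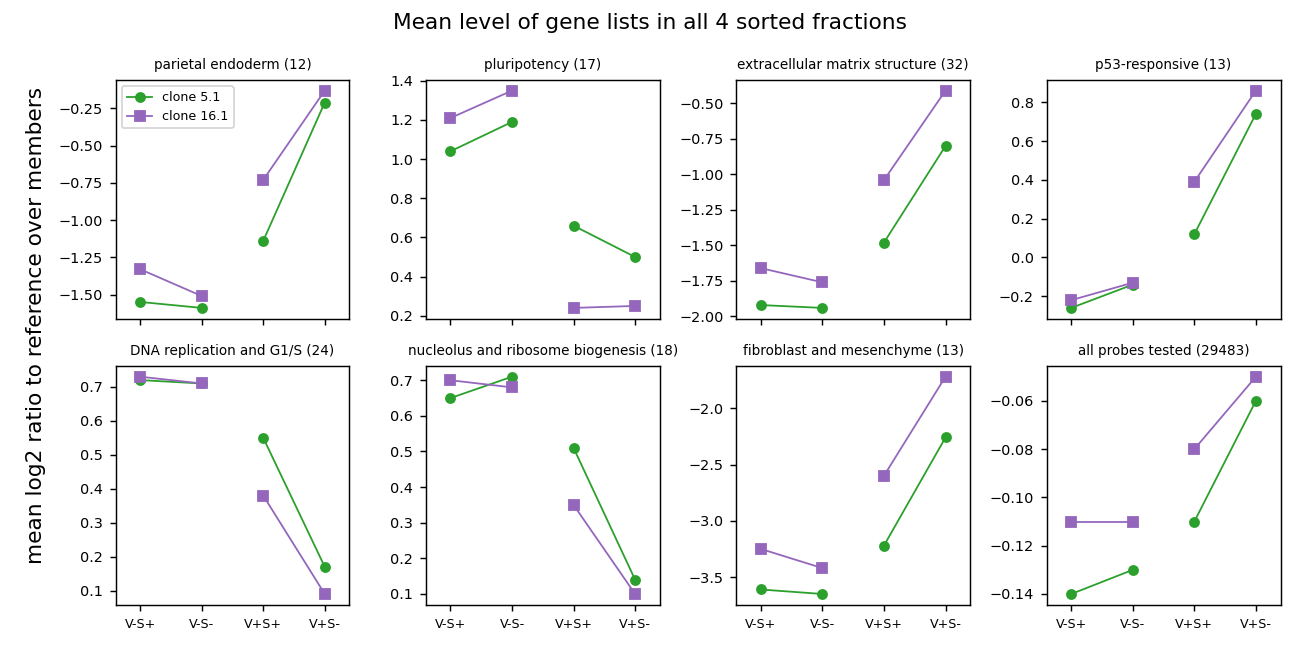
Mean log2 ratio to the reference RNA over the named members of 7 gene lists and over all probes tested, in each of the 4 sorted fractions, with circles for clone 5.1, squares for clone 16.1 and a y axis of its own for each list. Lines join the fractions of a clone that differ in SSEA-1, and in V+ cells the line rises for matrix, fibroblast, parietal endoderm and p53-responsive genes and descends for replication and nucleolus genes in both clones.

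The 2 largest falls among named genes were those of Prpf19 and Raly. Prpf19, a spliceosome subunit, had log2 ratios of 0.76 (clone 5.1) and 0.57 (clone 16.1) in V+S+ and of -1.22 and -1.14 in V+S- (-1.85 ± 0.38, adjusted p = 0.0309 in limma). Raly, a heterogeneous nuclear ribonucleoprotein, went from 0.95 and 0.98 to -0.88 and -0.68 (-1.74 ± 0.20, adjusted p = 0.00822 in limma). Neither gene overlapped between fractions. Taf15 (-0.88 ± 0.11) and Hnrpul2 (-0.99 ± 0.19), which encode RNA-binding proteins, fell too, as did 6230416J20Rik (Haus6, a subunit of the augmin complex of the spindle, -1.42 ± 0.18) and Stk32c (-1.13 ± 0.16). Taf15 was -1.49 but not called with the signals as processed by the scanner software.

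In V- cells 6 of the genes that fell in V+ cells differed by clone, while Taf15, Hnrpul2 and 6230416J20Rik are not described here. In clone 5.1 the difference between V-S- and V-S+ was -1.64 for Prpf19, -1.21 for Raly, -1.06 for Rbbp4, -0.95 for Stk32c, -0.83 for Psap and -0.59 for Pou5f1. In clone 16.1 the differences of the same genes were 0.04, -0.32, -0.29, -0.20, -0.12 and 0.05. For none of these 6 genes did the difference between the V+ and the V- comparison pass the test, with adjusted p-values in limma from 0.105 for Pou5f1 to 0.341 for Prpf19. Without the V+S+ sample of clone 16.1 Prpf19 and Hnrpul2 did not pass the test.

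A separate set of rises consisted of genes known from the 2-cell embryo and from the rare ES cells that express Zscan4. Tcstv1 had log2 ratios of -0.37 (clone 5.1) and -0.73 (clone 16.1) in V+S+ and of 1.46 and 0.55 in V+S- (1.55 ± 0.36, adjusted p = 0.0431 in limma). Tcstv3 had -0.31 and -0.78 in V+S+ and 1.51 and 0.64 in V+S- (1.62 ± 0.38, adjusted p = 0.0430 in limma), and AF067061 had -0.73 and -1.25 and then 1.08 and 0.21 (1.63 ± 0.39, adjusted p = 0.0455 in limma). For all of them both V+S- samples were above both V+S+ samples.

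The related AF067063, looked up after its value was seen, rose by 1.18 ± 0.29 (adjusted p = 0.0491 in limma), and Zscan4c, a member of the pluripotency list, which stood at -1.96 and -1.99 in V+S+ and at -0.19 and -0.87 in V+S-, missed the threshold (1.45 ± 0.36, adjusted p = 0.0509 in limma). The calls were near the threshold throughout: Tcstv1, Tcstv3 and AF067061 were not called when any 1 sample other than those of V-S+ was left out.

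These genes also differed by SSEA-1 in V- cells, where no probe passed the test. Between V-S- and V-S+ the difference was 1.89 in clone 5.1 and 1.68 in clone 16.1 for Tcstv1, 2.17 and 1.81 for Tcstv3, 2.40 and 2.02 for AF067061, and 1.78 and 1.77 for Zscan4c. The tests of the difference between the V+ and V- comparisons gave adjusted p-values of 0.861, 0.765, 0.622 and 0.786 in the same order. EG627488 (now Gm6763) had the same pattern, with 1.42 and 1.22 in V+ cells and 1.84 and 1.69 in V- cells, as did the unnamed probe Z00052514-1, with 1.74 and 1.24 in V+ and 1.87 and 1.70 in V- cells.

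AF067063, Tcstv1, AF067061 and Tcstv3 lie in 1 stretch of chromosome 13 that holds 31 annotated genes from the first to the last (RefSeq, GRCm38.p6). Whether RNA of 1 family member also bound the probe of another was not tested. The deposited 60-base probes of Tcstv3 and AF067061 share a run of 12 bases, shown in capitals within 30 bases of each, from base 31 of the Tcstv3 probe and from base 1 of the AF067061 probe.
Tcstv3: agctcctgctggtacagcAAAGGCACACAA
AF067061: gttacaggAAAGGCACACAAaggcagttgt

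**Figure D5:**
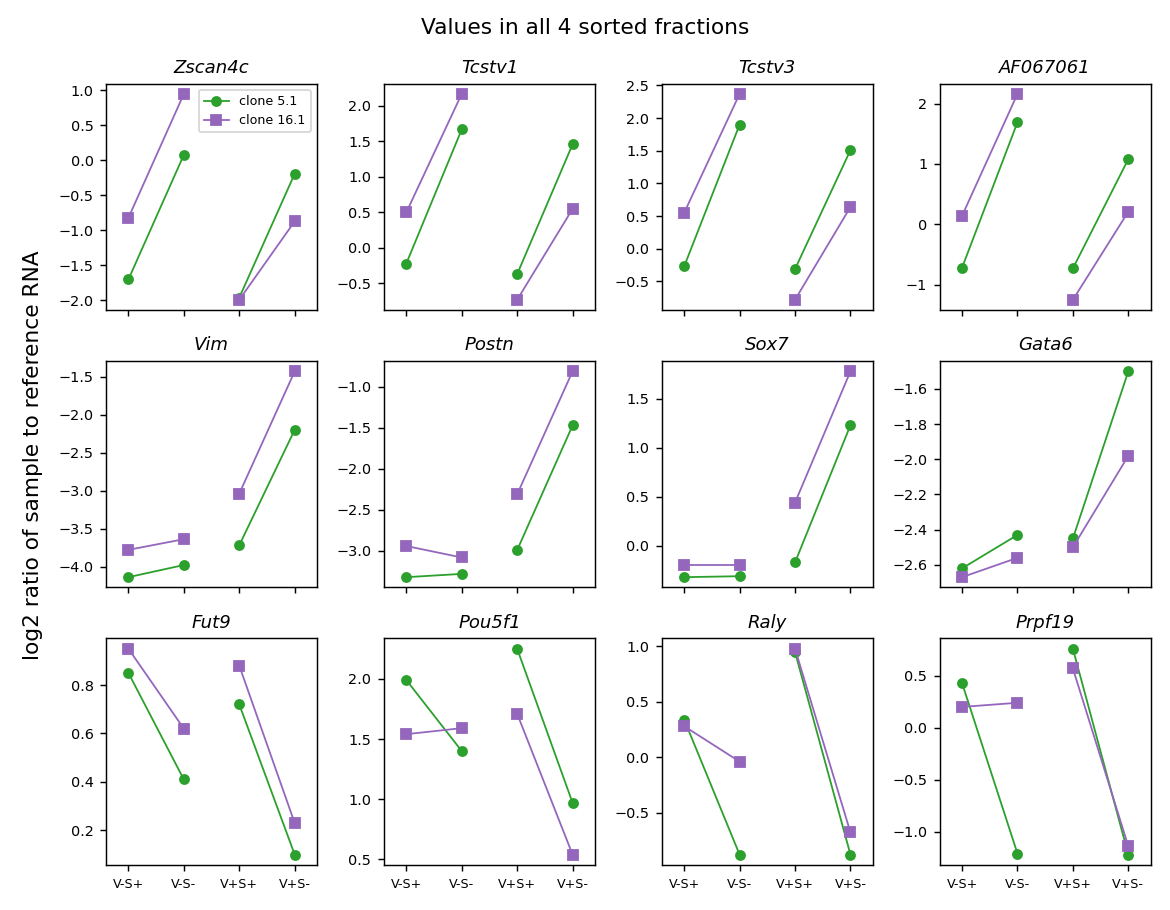
Log2 ratio of sample to reference RNA for 12 genes in the 4 sorted fractions, with circles for clone 5.1 and squares for clone 16.1 and a y axis of its own for each gene. Lines join the fractions of a clone that differ in SSEA-1: Zscan4c, Tcstv1, Tcstv3 and AF067061 are higher without SSEA-1 in both V- and V+ cells, Vim, Postn and Sox7 are higher without SSEA-1 in V+ cells with differences of no more than 0.17 in V- cells, and Raly and Prpf19 are lower in V-S- in clone 5.1 but not by as much in clone 16.1.

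Whether the difference by SSEA-1 was particular to Venus-positive cells was tested directly. Between V-S- and V-S+ no probe was called in limma, with 2473 at an unadjusted p under 0.05. More than 1.5-fold differences were counted as in V+ cells, with no test: 93 probes were higher and 57 lower in clone 5.1, 82 and 29 in clone 16.1, and 64 and 1 in both clones. The difference in V+ cells less that in V- cells, taken in 1 model of all 8 samples, was called for 254 probes (0.862%), with 244 upwards and 10 downwards, and 168 of them were named. This count also depended on single samples: it fell to 0 when V-S+ or V+S+ of clone 5.1, or any V-S- or V+S- sample, was left out, to 1 when V-S+ of clone 16.1 was, and came to 816 when V+S+ of clone 16.1 was. Centring each array on its median, without loess, gave 2256, and the Cy3 channel alone gave 0.

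Vim, Itga11 and Sox7 were among the genes whose difference was larger in V+ cells. Vim differed by 1.52 in clone 5.1 and 1.61 in clone 16.1 in V+ cells and by 0.17 and 0.15 in V- cells, so that the difference of differences was 1.41 (adjusted p = 0.0357 in limma). Itga11 had 1.57 and 1.20 against -0.24 and -0.37, and Sox7 had 1.40 and 1.34 against 0.01 and 0.00 (adjusted p = 0.0420 in limma). By list, the difference of differences was called for 9 of 26 proteases and inhibitors, 8 of 32 matrix genes, 6 of 13 fibroblast and mesenchyme genes and 6 of 44 actin genes. It was called for 5 of 12 parietal endoderm genes, 5 of 26 adhesion receptors and 5 of 21 TGF-beta, BMP and activin genes. Collagen folding had 4 of 16 and the p53-responsive list 2 of 13. The share over all named probes was 8.41%. None of the 24 replication or 18 nucleolus genes was called, and lists not given here had 4 calls or fewer. Igfbp5, with 1.87 and 1.72 against 0.24 and -0.08, missed the threshold (adjusted p = 0.0512 in limma).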

How the data were processed

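Total RNA of 4 sorted fractions from 2 clones was labelled with Cy3 and hybridised with a Cy5-labelled universal mouse reference RNA on 60-base probe arrays, without dye swap. The authors deposited the intensity of each spot as written by Agilent Feature Extraction 9.5.1.1 for 2 scans of each array. They also deposited log10 values, as a table of 25164 probes, used as an alternative. The file headers name another array design than the study's methods. Mean signals were background-corrected (normexp, offset of 50, which shrinks ratios of dim probes), normalized by loess in limma 3.58.1 (R 4.3.3) and averaged over scans, without control and outlier spots. Of 42006 probes, 29483 had a value in every sample and Cy3 well above background throughout at least 1 fraction, and were tested. All 8 samples were fitted with fraction and clone as terms (lmFit, eBayes). Calls needed a Benjamini-Hochberg adjusted p under 0.05 and more than 1.5-fold. Samples were paired by clone, each clone being 1 cell line. Across probes, the clones' departures from their fraction means correlated between fractions with r from 0.59 to 0.81.

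Gene names came from the study's table of differing genes, held here in part. The samples, gene lists and tests were chosen with earlier results of these data known. Named were the 15 largest rises and falls called in the same direction in both clones and well above background, Fut9, Gata6, Dab2, Sox7, Lrp2, Nanog, Dppa3, Pou5f1, Tdgf1, Id1 and Id2, and of each list the members with the largest differences and those called against its majority. List members outside this rule were named after their values were seen. Gene lists were described by counts and medians, with no set test. A gene in more than 1 list was counted in each of them. The values of 1 list member are not reported here. Data of 29483 probes were simulated with independent normal noise of the spread that limma had fitted. On these the fit of V+S- against V+S+ recovered 99.0% of probes changed by 1 on the log2 scale, with 9 false calls. This checks the fit on data made to its assumptions, and does not show what share of real changes was found. Alternatives covered the block, samples, background, normalization, filter, scans, the authors' values, moderation and the fold threshold.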

Additional observations from a re-analysis of the deposited data

Results flagged for a closer look

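The difference by SSEA-1 differed between V+ and V- cells for 254 probes in limma (Benjamini-Hochberg adjusted p under 0.05 and more than 1.5-fold). Of the named genes with the largest rises and falls in V+ cells, chosen by the rule given above, 11 were among them. That choice rests on the difference in V+ cells, which is also a part of the quantity tested. The choice favours such calls, so their number is not separate evidence. Over all named probes 8.41% were called. On the log2 scale, the difference in V+ cells less that in V- cells was 1.69 for Itga11, 1.63 for Pcdh18, 1.56 for Postn, 1.51 for Adamts4, 1.48 for Col1a2, 1.41 for Vim, 1.41 for Maf, 1.37 for Sox7 and 1.34 for Ifi202b. It was -0.84 for Spon1 and -1.01 for BC017612. The count of 254 was 0 to 816 when single samples were left out.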

How the results depend on the processing

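All 104 called genes of the rule kept their direction under every alternative run. These genes had the same direction in both clones from the start, and some alternatives change the test but not the difference. Of the 104, 94 kept their call with the Cy3 channel alone and 75 with the authors' log10 values in the tested probes. In the settings below where no probe was called, none kept its call. With all samples kept, genes that were not called ranged from -0.01 to 0.18 (Id1) and from -0.11 to 0.03 (B4galt4), so neither has a settled direction, and Nanog ranged from -0.31 to -0.13, Gcnt1 from 0.09 to 0.24 and Lrp2 from 0.09 to 0.23. The V+ comparison kept its counts within 1.5 times with only its own 4 samples (579 higher, 121 lower, including all 621 calls), without background correction, with either filter and with either scan. No probe was called without clone as a replicate block (0), with scanner-processed signals (0, smallest adjusted p = 0.0507, 8077 at an unadjusted p under 0.05), with an unmoderated test (0, 6816 at an unadjusted p under 0.05) or with the authors' log10 values and no filter, chosen after seeing the data (0, 5103). The test of the difference between V+ and V- likewise gave 0 in all of these, and 0 with the Cy3 channel alone and with the authors' values in the tested probes, where 338 probes were higher and 82 lower in the V+ comparison. Other counts were 821 higher and 2256 for the V+ and V- difference with median centring, where the median of that difference over all probes was 0.20 (log2) in place of 0.01, and which gave 90.7% higher calls in place of 83.3%; 157 lower with Cy3 alone; and 2317 higher and 886 lower without a fold threshold. Leaving out 1 sample at a time gave 0 to 821 higher, 0 to 194 lower, 0 to 816 for the V+ and V- difference and 0 to 5 for V-S- against V-S+. The causes were not tested. A sample left alone in its fraction is assumed to vary like the others, and 2 arrays per fraction limit all tests.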
